A study of Mus musculus with 4 samples.

Results

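Of the 778 peaks that SOX3 chromatin immunoprecipitation sequencing (ChIP-seq) found in common between mouse testes, 12 had one of 9 histone H2A or H2B genes as the nearest gene. The genes were Hist1h2ao, Hist2h2aa1 and Hist2h2ac for H2A, and Hist1h2bb, Hist1h2bc, Hist1h2bm, Hist1h2bn, Hist1h2bp and Hist1h2br for H2B. They were chosen by the common peaks themselves, as genes that the authors' annotated table names as nearest to one, so the number of peaks and the peak scores given for them are a description and not a test of binding. The samples were testes of 129/SvJ mice at postnatal day 7, with 3 SOX3 ChIP samples (replicates 1, 2 and 3), each from its own testis per the series' design text (separate animals are not stated), and 1 input DNA sample not analysed here. The labels' protocols name a Sox3 null line crossed onto 129/SvJ and use of its F6 generation, and the labels give no genotype for a single testis. The antibody was a goat polyclonal raised against human SOX3. Peak lists hold no RNA values, so the tissue label could not be checked against marker genes, and a testis at this age holds germ cells and somatic cells together.

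SOX3 is a DNA-binding protein of the SOX B1 group of transcription factors, known in the testis from spermatogonia, the dividing germ cells from which sperm derive. Histones H2A and H2B form the dimers that complete a nucleosome around the H3 and H4 tetramer. The genes described here belong to the replication-dependent class, which is expressed in S phase, lacks introns in the main transcript and ends its mRNA in a stem-loop instead of a poly(A) tail. Many H2A and H2B genes stand head to head and are read outwards from 1 shared promoter. The known elements of such promoters are CCAAT boxes, bound by NF-Y, the TATA box, and in H2B promoters an octamer that OCT1 binds.

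RefSeq promoter windows of assembly GRCm38.p6, 250 bases before to 50 after the start site, were found for 8 of the 9 genes, with Hist1h2bc as the gene without one. Several windows were 1 promoter read from both sides. The window of Hist1h2ao was identical over 267 of 267 bases to the reverse complement of that of Hist1h2bq, an H2B gene, which put the start sites of these neighbours 168 bp apart. Likewise Hist1h2bn shared its window with Hist1h2ak over 263 of 263 bases, with start sites 164 bp apart, and Hist1h2bp with Hist1h2an over 261 of 261 bases, 240 bp apart. The starts of Hist1h2br and Hist1h2ap, its head to head neighbour, were 268 bp apart by the same measure. The shared promoters are printed first, as the bases between both start sites, and then the upstream bases of 3 genes that are not part of such a promoter. Each is read 5′ to 3′ towards the gene named, and capitals mark CCAAT boxes on either strand (ATTGG is the reverse complement), the octamer ATTTGCAT and the SOX core described in the next paragraph.
Hist1h2ao, shared with Hist1h2bq: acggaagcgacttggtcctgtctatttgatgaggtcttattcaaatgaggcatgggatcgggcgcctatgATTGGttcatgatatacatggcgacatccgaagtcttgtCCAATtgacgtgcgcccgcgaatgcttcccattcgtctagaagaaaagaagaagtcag
Hist1h2bn, shared with Hist1h2ak: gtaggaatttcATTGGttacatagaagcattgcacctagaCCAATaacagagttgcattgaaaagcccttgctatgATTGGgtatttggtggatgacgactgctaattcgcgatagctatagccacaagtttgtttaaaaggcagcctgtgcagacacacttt
Hist1h2bp, shared with Hist1h2an: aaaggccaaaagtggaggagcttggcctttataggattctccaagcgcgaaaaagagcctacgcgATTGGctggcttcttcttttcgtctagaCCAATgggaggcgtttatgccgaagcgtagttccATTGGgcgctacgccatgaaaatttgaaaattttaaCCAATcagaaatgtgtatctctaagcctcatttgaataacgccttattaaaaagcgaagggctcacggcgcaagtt
Hist2h2aa1: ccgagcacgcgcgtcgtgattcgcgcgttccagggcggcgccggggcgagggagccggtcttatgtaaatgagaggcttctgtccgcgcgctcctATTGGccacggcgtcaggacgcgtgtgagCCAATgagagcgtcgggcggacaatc
Hist1h2bm: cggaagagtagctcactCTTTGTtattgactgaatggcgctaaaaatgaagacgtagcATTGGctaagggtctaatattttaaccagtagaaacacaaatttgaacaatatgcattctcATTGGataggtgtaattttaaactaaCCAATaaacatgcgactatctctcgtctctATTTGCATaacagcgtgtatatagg
Hist1h2bb: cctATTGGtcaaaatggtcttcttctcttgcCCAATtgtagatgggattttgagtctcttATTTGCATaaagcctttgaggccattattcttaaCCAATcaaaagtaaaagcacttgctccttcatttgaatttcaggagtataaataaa

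The CCAAT box was the element that every one of these windows held. It was present in 8 of 8 windows, with 2 to 4 boxes each (median 3), against 37.4% of all 32851 RefSeq windows of the same length. All 8 also held an ATTGG followed within 60 bases by a CCAAT, the arrangement seen in the printed sequences, which was looked for after the boxes had been seen. That arrangement stood in 24 of the 27 windows of the remaining H2A and H2B genes, in 1 of 10 H3 windows, in 0 of 12 H4 windows and in 2.06% of all windows. The 27 windows are not a set without peaks, because common peaks also named Hist1h2ba, Hist1h2bj and Hist1h2bk. Hist1h2ak, Hist1h2an, Hist1h2bq and Hist1h2ap, also among the 27, share promoter bases with genes of the 8. The shares of 8 and 27 windows thus cannot show whether the elements go with a common peak. CCAAT boxes were present in the windows of Hist1h2bl, Hist1h2ai, Hist1h2bg, Hist1h2ae, Hist1h2bf and Hist1h2ad, whose shared promoters had no common peak. The boxes were therefore not limited to promoters with such a peak.

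The octamer ATTTGCAT was found, on either strand, in 3 of the 8 windows, against 11 of 27 in the remaining H2A and H2B genes and 1.74% of all windows. It lay at position −25 in Hist1h2bm and at −90 in Hist1h2bb, both H2B genes, and at −200 on the opposite strand in Hist2h2ac, an H2A gene. Positions give the leftmost base of the element before the start site. The TATAAA element was present in 5 of 8 windows, against 14 of 27 for the remaining H2A and H2B genes and 13.6% of all. It lay at −42 in Hist2h2ac, at −10 in Hist1h2bb and at position 12 after the start site in Hist2h2aa1. In Hist1h2bn and Hist1h2bp it lay on the opposite strand, at −190 and −212. Those are the elements at 22 in Hist1h2ak and at −33 in Hist1h2an, the partner genes. They are therefore counted in the 8 and in the 27 windows alike. The core of the SOX site, searched as ACAAAG or ACAATG on both strands, was found in 1 of 8 windows, at −183 in Hist1h2bm, against 9 of 27 for the remaining H2A and H2B genes and 28.6% of all windows. A match is only a match of letters. By HOMER's distances, 7 of the 12 peaks reached into the span of such a window, among them that of Hist1h2bc, which has no RefSeq window. The other 5 lay wholly beyond its downstream end, so for those 5 the window's bases are next to the peak and not under it. Some of the 7 reached in by little. The Hist1h2bm peak covered −423 to −199 bp, so by these distances its CCAAT boxes, octamer and SOX core lay outside the peak. By the same distances the Hist2h2ac peak covered 47 to 245 bp, away from every element found in its window. Peak spans count from HOMER's TSS and elements from the RefSeq start site. Whether the 2 agree at these genes was not checked, which matters most for the SOX core at −183. Sequence under the peaks was not analysed here, because the peaks are given on mm9.

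The scores that follow are the authors' own value per peak and are read within a list only, where the lowest score is about 40. The replicate lists held 2912, 2598 and 2734 peaks, with median scores of 47.8, 48.1 and 47.3, and the read depth behind them is unknown. To set lists side by side, each score was also turned into its percentile among all peaks of its own list. Of the 12 peaks, 9 lay in histone clusters on chromosome 13 and 3 in the cluster on chromosome 3.

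The H2A gene Hist2h2aa1, on chromosome 3, carried the highest scores of the 9 genes. It is named at a pair of peaks, chr3:96043951-96044533 and chr3:96049191-96049726. The left peak scored 336, 381 and 392 in replicates 1, 2 and 3, which were ranks 39, 24 and 27 of those lists. The right peak scored 351, 388 and 383, at ranks 35, 23 and 30. Both peaks thus stood between the 98.7 and the 99.1 percentile in all 3 testes, and no replicate stood apart. They were 583 and 536 bp wide and spanned the transcription start site (TSS), with centres 15 and 38 bp downstream of it.

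Hist1h2ao, an H2A gene of the chromosome 13 cluster, was also named at a pair of peaks, and here the testes differed. The left peak, chr13:21901912-21902528, scored 111 in replicate 1 and 76.8 in replicate 3, and replicate 2 listed no peak there. The right peak, chr13:21925148-21925768, scored 112, 41.15 and 76.8, the value of replicate 2 being near the lowest score listed. Replicates 1 and 3 therefore placed both peaks at or above the 88.2 percentile, and replicate 2 placed the right one at 7.81. The common peaks were 617 and 621 bp wide, centred at −16 and −14 bp from the TSS, and ran from −324 bp. From the peak centres and HOMER's distances, Hist1h2ao and Hist1h2br face away from each other at both places with start sites 168 bp apart, so the Hist1h2ao peaks spanned both start sites of 1 divergent promoter and ended inside the H2B gene, 48 bp short of its own peak. In replicate 3 each consisted of separate peaks of 381 and 207 bp, with scores of 76.8 and 47.59.

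Hist2h2ac, the last of the H2A genes, had 1 peak at chr3:96024558-96024756, which scored 78.62 and 78.5 in replicates 2 and 3. Replicate 1 held no peak there. Both values lay near the 88 percentile (87.5 and 88.7), but the replicate peaks differed in width, 199 bp against 92 bp. The peak was centred 146 bp downstream of the Hist2h2ac TSS and was classed at the promoter of the transcript NM_178214, which belongs to Hist2h2be, the neighbouring H2B gene.

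**Figure D1:**
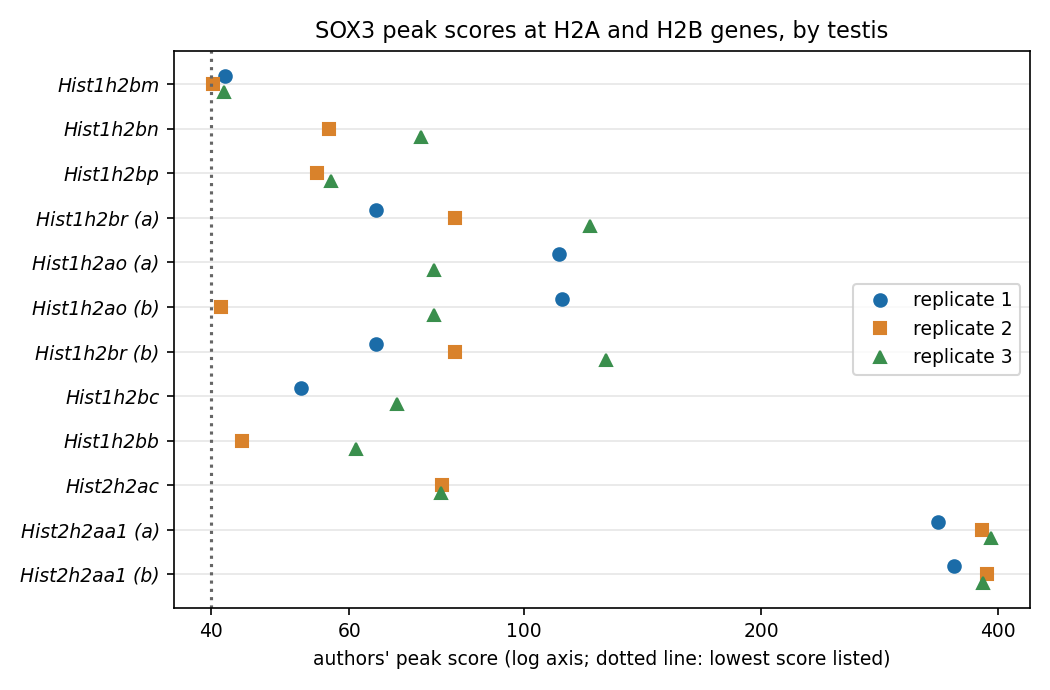
Authors' peak score (log axis) of each of the 12 peaks, 1 point per replicate list that holds the peak. Left copies are marked (a) and right copies (b). The Hist2h2aa1 peaks sit at 336 to 392 in every testis, all others at 127 or below, and Hist1h2bm sits beside the dotted line at the lowest score listed.

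Among the 6 H2B genes described here, Hist1h2br had the highest scores and was again named at a pair of places. The left peak, chr13:21901527-21901863, scored 64.88, 81.75 and 121 in replicates 1, 2 and 3. The right peak, chr13:21925817-21926153, scored 64.88, 81.75 and 127. Within the lists these were the 80.8, 88.4 and 94.9 percentiles for the left peak. Both were 337 bp wide and lay wholly downstream of the TSS, between 205 and 541 bp from it.

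Hist1h2bn and Hist1h2bp, H2B genes with a shared promoter, were found in replicates 2 and 3 only. Hist1h2bn, at chr13:21846169-21846343, scored 56.47 and 74.05 there, and Hist1h2bp, at chr13:21879561-21879759, scored 54.53 and 56.8. All 4 values lay between the 68.1 and 87.03 percentiles. The Hist1h2bn peak covered 177 to 351 bp and the Hist1h2bp peak 204 to 402 bp downstream of their TSSs, and HOMER classed them at the promoters of the partner genes Hist1h2ak and Hist1h2an. Replicate 2 listed 2 further peaks, of scores 46.8 and 46.61, at 1042 and 405 bp from the Hist1h2bp peak that no other list repeated.

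Hist1h2bb, in the second histone region of chromosome 13, was the only gene of the 9 whose peak was classed in an exon (exon 1 of 1). That peak, chr13:23838769-23839012, scored 43.79 in replicate 2 and 61.1 in replicate 3, the 29.2 and 80.2 percentiles, and was not listed in replicate 1. It covered 165 to 409 bp downstream of the TSS. Replicate 2 also listed a peak of score 74.7, higher than its peak at the gene, 1331 bp from it.

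Hist1h2bc was found in replicates 1 and 3, with scores of 52.1 and 69.02 at chr13:23776052-23776229. Its peak spanned the TSS, from −17 to 161 bp, the only one of these 6 H2B genes to do so. Replicate 2 held no peak at that place but listed one of score 48.17 and 258 bp width that began 61 bp beyond its end. The absence of replicate 2 from this peak thus concerns the 178 bp of the common peak and not the neighbourhood.

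Hist1h2bm had the weakest peak, and it was in all 3 lists. The peak, chr13:21813490-21813714, scored 41.7, 40.28 and 41.58, at the 13.5, 1.501 and 10.3 percentiles of the lists. It was centred at −311 bp from the TSS, upstream of it, where the other H2B peaks were centred downstream, and it did not reach the TSS. In the RefSeq order the neighbour of Hist1h2bm on 1 side is an H2A pseudogene. Replicate 2 listed a stronger peak of score 71.96 only 174 bp beyond the end of the common peak, and the other lists did not hold it.

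With mirrored copies (described further on) counted separately, H2A and H2B peaks differed in where they lay, as HOMER assigned them. Of the 5 peaks at H2A genes, 4 spanned the TSS. The median distance of the centre was 15 bp and the median width 583 bp. Those 4 are the mirrored pairs of Hist1h2ao and Hist2h2aa1. The remaining H2A peak, at Hist2h2ac, lay 47 to 245 bp downstream and was 199 bp wide, so the contrast rests on those pairs. Of the 7 peaks at H2B genes, 1 spanned the TSS and 5 lay wholly downstream, with a median distance of 287 bp and a median width of 225 bp. The H2B genes outside these 6 that had a common peak are not in this count, and among the 4 H2A and H2B peaks left out, 3 spanned the TSS. Over all 12 peaks the median distance was 109 bp downstream. It was 26.5 bp over peaks in all 3 lists and also without replicate 2 or without replicate 3, and 205 bp without replicate 1. The 95 common peaks of genes outside the replication-dependent histone families lying at most 1000 bp from a TSS were centred a median of 15 bp downstream. Since a peak is given to the nearest TSS, and partner start sites lie 164 to 281 bp apart, these positions depend on the choice of gene and were not tested.

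**Figure D2:**
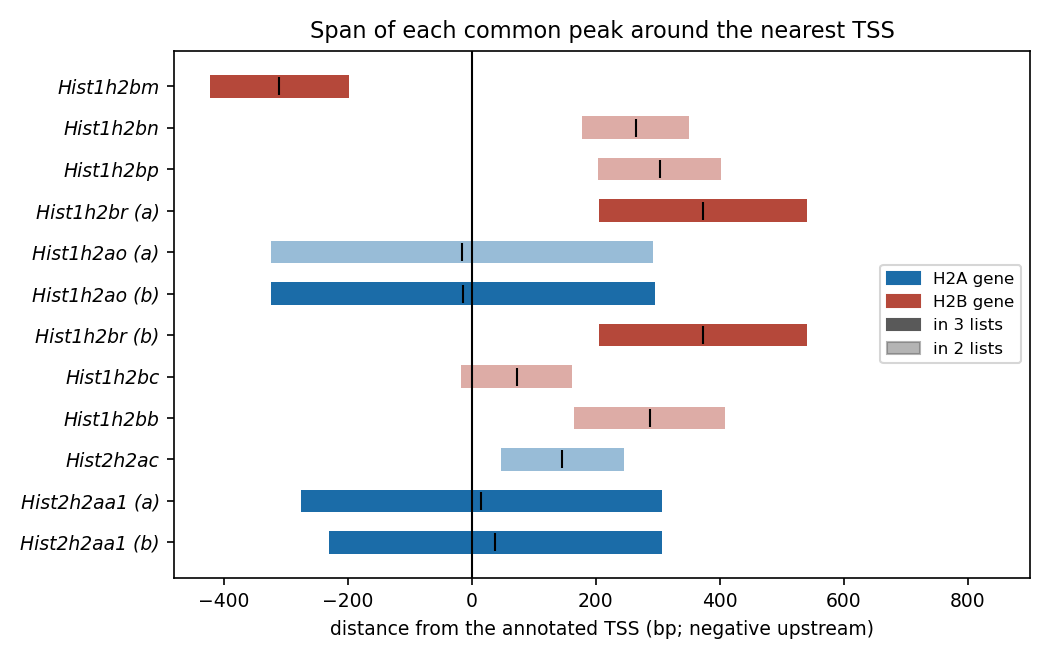
Extent of the 12 common peaks relative to the nearest annotated TSS (bp, negative upstream), with a tick at the centre. Strong colours mark peaks in all 3 lists and pale ones peaks in 2. H2A peaks mostly span the TSS, and H2B peaks mostly lie 165 to 541 bp downstream. The H2A peaks that span it are the copies (a) and (b) of Hist1h2ao and Hist2h2aa1, and the Hist2h2ac peak lies downstream.

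Of the 12 peaks, HOMER placed 11 at promoters, but in 9 cases the class named another gene than the nearest one. Over the promoter windows, 10 shared H2A and H2B promoters were found by their sequence, and 7 of them had a common peak at a partner. At 5 of these the gene named was the H2B partner alone: Hist1h2bn and Hist1h2bp, together with Hist1h2bj, Hist1h2bk and Hist1h2ba, which are not among the 9 genes. The other 2 are the mirrored copies described further on, which RefSeq names Hist1h2ao with Hist1h2bq and Hist1h2br with Hist1h2ap. There the authors' table named Hist1h2ao and Hist1h2br together at each copy, so that both sides of the promoter carried a peak. The 3 shared promoters with no common peak at either gene were those of Hist1h2bl with Hist1h2ai, Hist1h2bg with Hist1h2ae, and Hist1h2bf with Hist1h2ad. The count of 10 covers only couples in which both genes have a window. Hist1h2bc and Hist2h2be had none, so a promoter shared by either could not be found. The Hist2h2ac peak, named for the H2A gene and classed at Hist2h2be, is therefore outside this count.

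All H2A and H2B genes named by common peaks numbered 12 protein-coding genes, 3 of 18 for H2A (16.7%, exact Clopper-Pearson 95% interval 3.58 to 41.4%) and 9 of 18 for H2B (50.0%, 26.02 to 73.98%), with a peak within 5000 bp of the TSS. A gene was counted only where it was the nearest gene of such a peak. Partners at a shared promoter that no peak named, such as Hist1h2ak and Hist1h2an, therefore count as without a peak. The split between H2A and H2B depends on that choice of gene. Over all 21900 protein-coding genes the share was 0.712%. Because the genes were chosen for having a peak, nothing is read from this contrast. The H2B genes outside the 9 were Hist1h2ba, the testis-specific TH2B gene, with scores of 94.74, 248 and 109 in replicates 1, 2 and 3, Hist1h2bj with 56.54, 99.06 and 146, and Hist1h2bk with 48.4 and 69.22 in replicates 2 and 3. The H2A pseudogene Hist1h2al scored 108, 192 and 82.3. These values fell within the range of the 9 genes.

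In the lists of H2A variants, of factors for histone mRNA, of histone promoter factors and of H2A and H2B chaperones, 1 of 7, 0 of 12, 0 of 11 and 0 of 8 genes were bound by the same measure. The variant was H2afx, which encodes the damage-responsive H2A.X. By score it was also among the 3 genes outside the replication-dependent histone families whose peak near a TSS was most like the median of the 12 peaks in its percentile in the 3 lists. That median, 71.8, 69.6 and 88.2 in replicates 1, 2 and 3, counts a list without the peak as 0. The others were Hnrnpk, an RNA-binding protein gene, and Dagla, which encodes a lipase of endocannabinoid synthesis. Summed over the 3 lists, the percentiles differed from that median by 30.8 points for Hnrnpk, 35.4 for Dagla and 41.9 for H2afx. With the median taken only over the peaks a list holds, the nearest genes were H2afx (16.9 points), Gdpd1 (21.9) and 2900060B14Rik (24.1), so of the 3 only H2afx was named by both measures. Taking 3 counts of the total as the limit of a count of 0, these lists allow shares of up to 25.0, 27.3 and 37.5%.

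Presence in the testes was uneven. Of the 12 peaks 6 were in all 3 lists (50.0%, 95% interval 21.1 to 78.9%), against 29.9% of all common peaks. For the peaks outside these histone families near a TSS the share was 43.2% (41 of 95). The interval treats the 12 peaks as separate, but 5 of those 6 peaks lie in the mirrored copies described further on. Outside these copies the share was 1 of 6 (16.7%). Among the 9 genes, 4 had a peak in all 3 lists: Hist1h2ao, Hist1h2bm, Hist1h2br and Hist2h2aa1. Replicate 3 held all 12, replicate 2 lacked 2 and replicate 1 lacked 4. Over all common peaks the lists lacked 20.3, 25.96 and 23.8% in replicates 1, 2 and 3. The 10 H4 peaks were in all 3 lists in 9 cases and the 10 H3 peaks in 5, and replicate 3, which held every H2A and H2B peak here, lacked those other 5 H3 peaks. The choice of peaks found in at least 2 lists fixes part of this, and no test was made.

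When only peaks found in both remaining lists were kept, 8 of the 9 genes stayed without replicate 1, 5 without replicate 2 and 4 without replicate 3. The corresponding numbers of peaks were 10, 8 and 6 of 12, against 50.3, 55.9 and 53.7% of all common peaks. Without replicate 3 the peaks thus stayed at about the share of all common peaks. Without replicate 3 the genes Hist1h2bn, Hist1h2bp, Hist1h2bc, Hist1h2bb and Hist2h2ac had no such peak, so each of them rests on replicate 3 together with 1 further testis.

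The mean percentile over the lists that hold a peak had a median of 83.5 for the 12 peaks (range 8.44 to 98.96), against 73.1 for all common peaks, 79.7 for H3 peaks and 86.5 for H4 peaks. By list the median percentile of the 12 was 87.2, 79.3 and 88.2 in replicates 1, 2 and 3, a spread of 4.90 (SD, n = 3), and that of all common peaks 82.7, 82.7 and 83.7. In replicate 2 the H2A and H2B peaks therefore had a lower median than common peaks as a whole, and in replicates 1 and 3 a higher one. The direction of the difference from all common peaks was not the same in every testis.

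**Figure D3:**
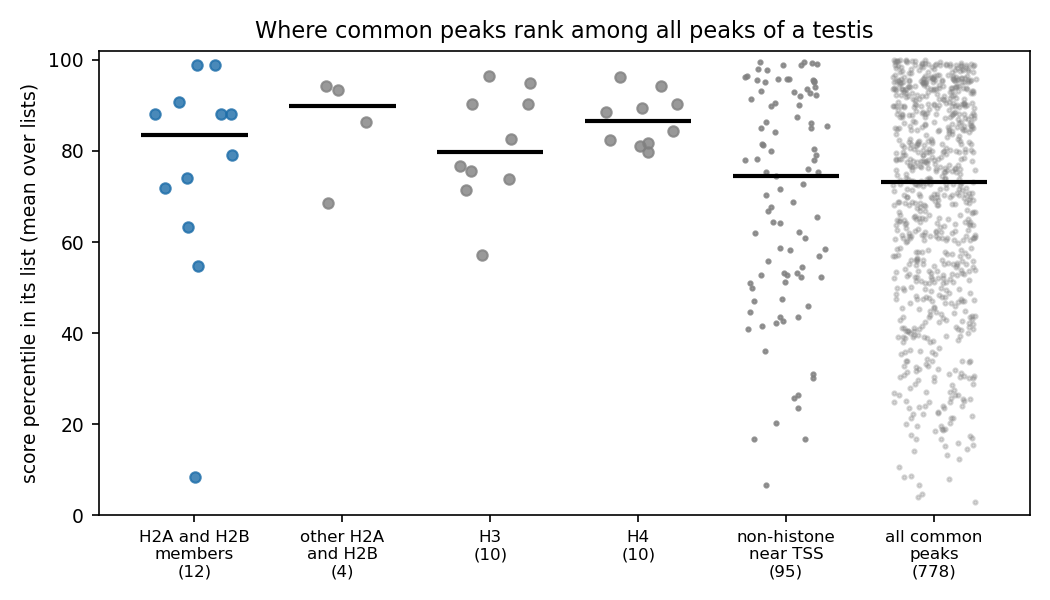
Score percentile of each common peak within its list, as the mean over the lists that hold it, by gene group, with the number of peaks in brackets and a bar at the median. The 12 H2A and H2B peaks range from 8.44 (Hist1h2bm) to 98.96 (Hist2h2aa1), with a median of 83.5 against 73.1 for all common peaks.

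Copies of the same sequence bear on 6 of the 12 peaks. The peaks of Hist1h2br and Hist1h2ao form mirror images on chromosome 13: when the right side was folded back on the left at 1 point, the edges of the Hist1h2br peaks fell on the same base and those of the Hist1h2ao peaks within 4 bases. The Hist1h2br peaks stand 23953 bp apart. On chromosome 3, folded at the point that brings the adjoining Hist2h3c2 peaks together, the Hist2h2aa1 peaks matched within 4 bases at 1 edge and 51 at the other, and stand 4657 bp apart.

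Scores at the mirrored places of Hist1h2br and Hist2h2aa1 were equal or close in the same list, and those of Hist1h2ao were so in replicates 1 and 3. At Hist1h2br the scores were 64.88 at both places in replicate 1 and 81.75 at both in replicate 2, with equal peak edges after folding, and 121 and 127 in replicate 3. At Hist1h2ao replicate 3 gave 76.8 and 47.59 at both, replicate 1 gave 111 and 112, and replicate 2 a peak at the right place alone. In the chromosome 13 region, 2 of 6, 2 of 4 and 4 of 8 peaks of replicates 1, 2 and 3 had an exact mirror image, each with the same score. On chromosome 3 the numbers were 2 of 9, 2 of 7 and 2 of 6, and none of these was a Hist2h2aa1 peak. Other mirrored places differed more, such as those of the neighbouring Hist1h4n, with 57.84 and 97.04 in replicate 1 and 73.4 at the right place alone in replicate 2, and a place beside Hist2h2aa1 with 249 against peaks of 76.96 and 126.8 in replicate 2. No source used here says how reads that fit both copies were placed, and these 6 peaks cannot be counted as 6 separate signals.

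**Figure D4:**
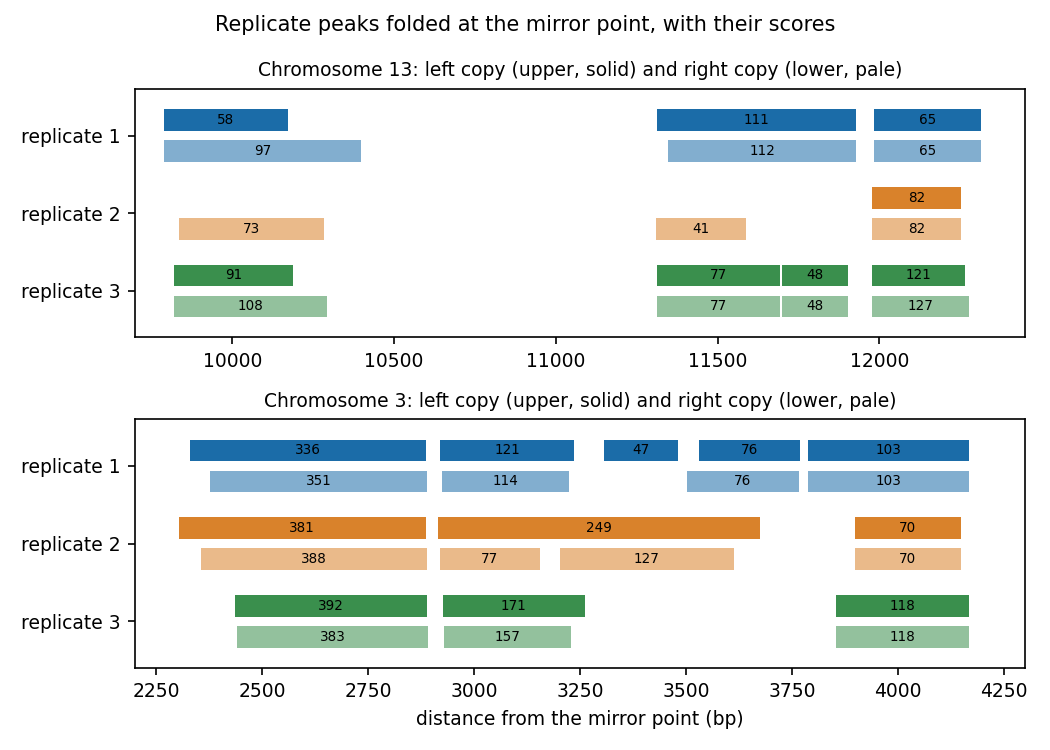
Peaks of each replicate list in the mirrored regions of chromosomes 13 and 3, plotted by distance in bp from the point of mirror symmetry, left copy above and right copy below, with the score written in each bar. On chromosome 13 the bars from 11977 to 12313 bp are Hist1h2br and those from 11308 to 11928 bp Hist1h2ao. On chromosome 3 the bars from 2303.5 to 2891.5 bp are Hist2h2aa1.

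The RefSeq windows of the copies were alike. Those of Hist1h2bq and Hist1h2br were identical over 300 of 300 bases, those of Hist1h2ao and Hist1h2ap over 200 of 200 aligned bases, and those of Hist2h2aa1 and Hist2h2aa2 over 249 of 260. In the RefSeq order Hist1h2bq stands beside Hist1h2ao and Hist1h2ap beside Hist1h2br, 1 H2A and H2B couple at each end, and Hist2h2aa2 stands beside Hist2h2aa1. The annotation used by the authors named Hist1h2ao, Hist1h2br and Hist2h2aa1 at both of their places. The names Hist1h2bq, Hist1h2ap and Hist2h2aa2 are thus nearest to 0 common peaks, although each has a copy that is named at a pair of them. HOMER's class did use the names Hist2h2aa2 and Hist1h2ap. Both Hist2h2aa1 peaks were classed at the promoter of Hist2h2aa2. The right Hist1h2ao peak and both Hist1h2br peaks were classed at that of Hist1h2ap.

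Outside the mirrored regions the 6 remaining peaks, at 6 genes, were narrower, and weaker by the median. Their mean percentile had a median of 73.0 against 89.5 for the 6 mirrored peaks, which belong to 3 genes. The ranges overlapped, with 8.44 to 88.1 outside the mirrored regions and 63.2 to 98.96 inside. The median width was 199 bp outside against 559.5 bp inside. Of the 6 outside, 1, that of Hist1h2bm, was in all 3 lists, against 5 of 6 inside. With mirrored copies of each gene counted as 1, 4 of 9 genes had a peak in all 3 lists.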

How the data were processed

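SOX3 ChIP samples from 3 mouse testes were analysed as the authors' peak lists. Per the submitters' processing notes, the workflow lists Bowtie2 2.0.0 and genome build mm9, and the peak names begin with MACS. The deposited score is the caller's value per peak, and no source used here gives its scale, the caller's version and settings, or the handling of multiply mapping and duplicate reads. The common peaks were annotated with HOMER on mm9, per the file headers, and the deposited distance to the TSS is HOMER's. That table's own peak score, 0 throughout its 778 rows, was set aside.

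Replicate peaks were assigned to a common peak at an overlap of at least 1 bp, and the best score was taken. Percentiles are within a list. Spans around the TSS centre the width of a peak on that distance. Intervals are exact (Clopper-Pearson) and cover counting error only. Genes, order and windows come from RefSeq GRCm38.p6, with no coordinate of it printed, and head to head spacing was computed from matching windows. Overlap, motif and window matching were tested on simulated data. Alternatives were a 50% reciprocal overlap, scores of 50 or more, a TSS limit of 1000 bp, equal copies counted once, other motif settings and each replicate left out. The genes, lists and tests were chosen with earlier results of these data known. Named are the 9 genes, their promoter partners, members of fixed lists with a peak, and the 3 most alike genes; a second measure of likeness, with its genes, was added after seeing the data. Hist1h2ba, Hist1h2bj, Hist1h2bk and Hist1h2al, and the genes of the 3 shared promoters with no peak, were named after their values were seen. Python 3.11.15, pandas 2.3.3 and scipy 1.17.1 were used.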

Additional observations from a re-analysis of the deposited data

How the results depend on the processing

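No paired analysis was possible because the results come from no test and the input sample has no peak list. Of the alternatives 21 of 28 values stayed within the limits set. Those limits were wide. They held a fall of the median TSS distance from 109 to 26.5 bp, and of the peaks in all 3 lists from 6 to 4. The count of 21 is therefore no measure of stability. Leaving out 1 replicate moved the number of peaks in every remaining list from 6 to between 6 and 10, the number of genes from 9 to between 4 and 8, the median TSS distance from 109 bp to between 26.5 and 205 bp, and the median percentile from 83.5 to between 77.8 and 87.996. The numbers of peaks and genes change by construction, since fewer lists are asked for, and for the distance and the percentile the cause was not tested. Ranked only among peaks that overlap a common peak, the median percentile was 54.5. With 1 mismatch allowed, the octamer was found in 8 of 8 windows, against 18.6% of all windows. Peaks in all 3 lists numbered 5 with a 50% reciprocal overlap, 4 at scores of 50 or more and 5 with equal copies counted as 1, and 4 with 1 peak per gene, which was chosen after seeing the data. The 1-mismatch search was not run for motifs under 7 letters. Read depth is unknown, and small numbers of peaks limit every share.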
